A study of Heliconius melpomene malleti and Heliconius melpomene plesseni with 96 samples.

Results

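The distal section of the pupal forewing was compared between the Heliconius melpomene races plesseni and malleti on day 1, the earliest stage sampled. The members are the 6 of 96 arrays whose labels give distal forewing and day 1, with 3 plesseni and 3 malleti arrays. The series measured total RNA of both races from hindwings, eyes and the proximal and distal sections of forewings on days 1, 3, 5 and 7, with 3 independent replicates in each of 32 groups. Samples are named by race, tissue, day and a replicate number that runs over the whole series. No treatment or genetic change is named, and the sources used here give neither the sex nor the number of pupae behind a sample. The arrays report 12832 features, of which 12778 were predicted genes and 51 were transcribed features of sequenced walks named AC, BD and YB. Each feature is named by its scaffold and its first and last position, without a gene name. The genome build behind these positions is not stated in the sources used here.

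In the pupal wing of butterflies, a sheet of epithelial cells holds the positional information of the future colour pattern, and scale cells later take up pigment according to it. The forewing bands of Heliconius melpomene races are known to map to a few loci of large effect. They include Ac, where the signalling ligand WntA acts, B/D, where the transcription factor optix sets red scales, and Yb, where cortex controls yellow and white scales. The comparison asks which features differ between races in the outer forewing at a stage before scales are pigmented.

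The 6 arrays lay on slides 3, 4, 5, 6 and 8, with median deposited intensities of 99.1, 95.2 and 159 in malleti replicates 3, 25 and 53 and of 228, 86.8 and 167 in plesseni replicates 4, 26 and 54. After quantile normalization of log2 intensities over all arrays, Pearson correlations across features were 0.968 to 0.993 within a race and 0.953 to 0.977 between races. Tissue markers could not be looked up without gene names, so each array was set against the group means of the series by Spearman correlation. For 5 of the 6 arrays the closest group was their own, at 0.973 to 0.991. Among these, plesseni replicate 26 was almost as close to plesseni hindwing day 1, at 0.9727 against 0.9731 for its own group. Malleti replicate 25 was closest to malleti hindwing day 1 at 0.976, against 0.974 for its own group, and the day 1 eyes of the same race gave 0.885 to 0.912 over the 6 arrays. Of 12 arrays doubted in earlier work on the series for standing apart or going against their labels, 0 were among the 6.

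Between the races, 18 of 12832 features differed at an adjusted p under 0.05 (0.14%), and almost all were higher in plesseni. The 17 higher features (0.132%) had a median log2 difference of 3.69, with a range of 2.54 to 6.45, and the 1 lower feature (0.00779%) fell by 4.54. All 18 differed by at least 2-fold and were measured by 9 probes, as were 11581 of the 12832 features. They lay on 17 scaffolds. Over all features the median race difference was -0.04, and 439 features (3.42%) had an unadjusted p under 0.05, with 271 higher and 168 lower in plesseni.

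The largest difference was that of HE672055:174650-177457. Its log2 values were 4.56, 4.39 and 4.29 in malleti replicates 3, 25 and 53 and 10.91, 11.58 and 10.09 in plesseni replicates 4, 26 and 54. All 3 plesseni arrays were far above the malleti arrays, which lay within a narrow band. The difference was 6.45 ± 1.25 (SE), an 87.5-fold higher intensity (adjusted p = 0.00386). Among the features higher in plesseni HE671449:441463-448255 followed, with 3.90, 3.66 and 3.62 in malleti and 8.08, 9.22 and 7.42 in plesseni, in the same order of replicates. Again the groups were well apart, by 4.51 ± 1.04 (SE) or 22.8-fold (adjusted p = 0.0381). The smallest p belonged to HE669508:36155-63895, at 3.33, 3.51 and 3.35 in malleti and 6.98, 8.00 and 6.49 in plesseni. Its difference was 3.76 ± 0.54 (SE; adjusted p = 2.61e-05). Another feature called higher in plesseni lay next to it, with 0 features between them, which was the 1 adjacent pair called in the same direction among 10666 pairs.

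The single feature called lower in plesseni, HE671379:17771-18663, was uneven among the malleti arrays. It measured 11.28 and 12.18 in malleti replicates 3 and 53 but 6.06 in replicate 25, and 5.03, 6.11 and 4.75 in plesseni replicates 4, 26 and 54. The groups therefore overlapped, because malleti replicate 25 lay just below plesseni replicate 26. The difference of -4.54 ± 1.04 (SE; adjusted p = 0.0344) rested on 2 high malleti arrays.

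All 17 higher features had every plesseni array above every malleti array, an arrangement that 1503 of all features (11.7%) showed, while 1781 (13.9%) showed the opposite one. Since the 17 were called on these arrays, their separation is a description. Per array, the 17 features ranged from 2.42 to 8.41 in malleti and from 4.87 to 11.88 in plesseni. The plesseni arrays also kept 1 order, with replicate 26 above 4 above 54 in 16 of the 17 features (94.1%), against 28.6% of all features. The exception was HE670679:2030-4690, in which replicate 26 was the lowest plesseni array. The files carry no detection call, so the folds are those of measured intensities, whether or not the malleti values lie above background.

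**Figure D1:**
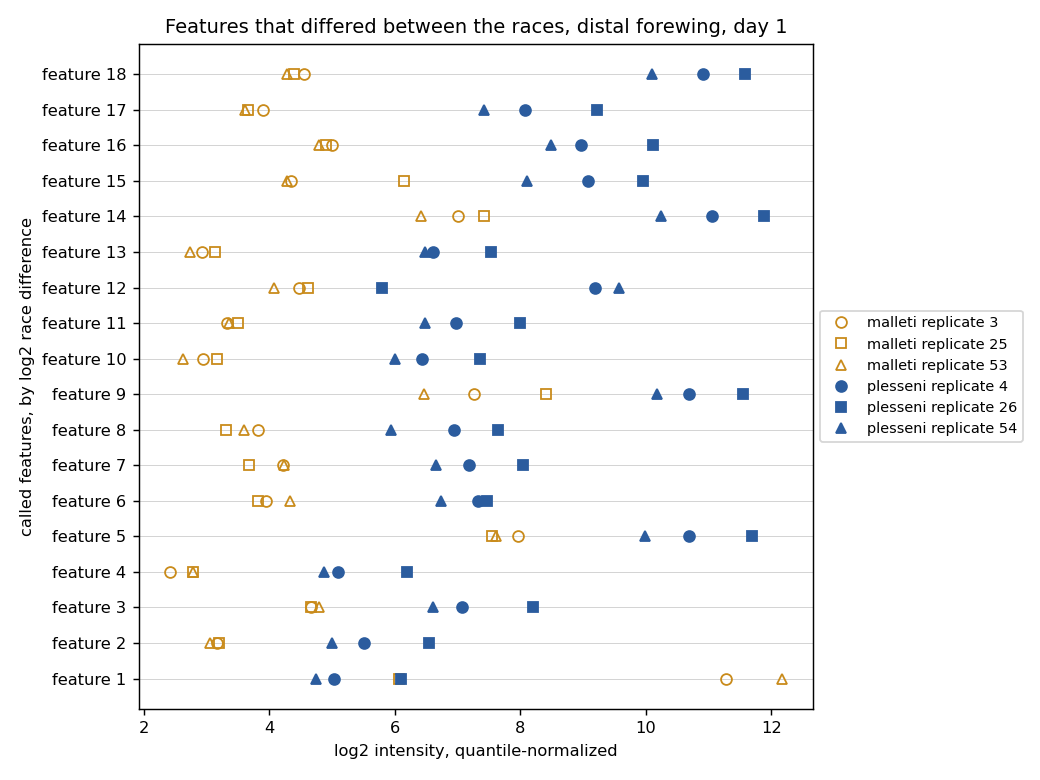
Quantile-normalized log2 intensity (horizontal axis) of the 18 called features, one per line, in each of the 6 arrays. Open symbols are malleti and filled symbols plesseni replicates; features are numbered by race difference, so feature 18 is the one with 6.45 and feature 1, with -4.54, the one lower in plesseni. In features 2 to 18 all filled symbols lie right of all open ones, and in feature 1 malleti replicate 25 lies beside the plesseni arrays.

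Of the 6 arrays, those on slide 8 were from both races, and there plesseni replicate 26 exceeded malleti replicate 3 by 1.33 to 7.03 at the 17 features, with a median of 4.30. The direction of these within-slide values is fixed by the choice of the 17 on the same arrays. With slide as a fixed block, 11 features were called, all higher in plesseni. The count also fell to 6 without plesseni replicate 26, to 9 without plesseni replicate 4 and to 10 without malleti replicate 3. It was 283 when the spread was estimated from the 6 arrays alone and 77 without the 12 doubted arrays of other groups, which kept 18 of the 18. HE669508:36155-63895 passed in 20 of 20 settings that tested it and HE672055:174650-177457 in 20 of 21, whereas HE671379:17771-18663 passed in 10 of 21.

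The same features were examined in tissues and days whose arrays entered the race comparison only through normalization and the shared estimate of spread. In the day 1 hindwing all 17 were higher in plesseni, with a median log2 difference of 2.20 and a range of 0.97 to 4.57, against 49.6% of all features higher and a median near 0. A single feature of the 17 passed the test there, HE671958:83780-85900, where 2 of 12832 features passed (0.0156%), 1 of them higher in plesseni (0.00779%). The hindwing arrays were uneven. Averaged over the 17 features, the log2 level was 7.88 in plesseni replicate 6, 8.61 in replicate 50 and 5.31 in replicate 28, and 4.59 to 5.00 in the malleti hindwings. Replicates 6 and 50 thus reached the levels of the plesseni distal forewing, 7.58 to 8.75, and replicate 28 lay just above malleti. Replicates 6, 28 and 50 exceeded all 3 malleti hindwings at 17, 8 and 16 of the 17 features, against 17.2%, 20.7% and 26.1% of all features.

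HE671958:83780-85900 was the feature that differed in both tissues. It stood at 7.96, 7.55 and 7.61 in the malleti distal forewings and at 10.69, 11.70 and 9.98 in the plesseni ones, a difference of 3.08 ± 0.61 (SE; adjusted p = 0.00474). In the hindwing the difference was 3.12 ± 0.61 (SE; adjusted p = 0.0174), with 7.45, 7.11 and 6.45 in malleti replicates 5, 27 and 49 and 10.92, 7.64 and 11.80 in plesseni replicates 6, 28 and 50. Plesseni replicate 28 lay just above malleti there, so the hindwing difference rested on the other 2 plesseni arrays.

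In the proximal forewing, the inner section of the same wing, 7 of the 17 features were higher in plesseni, with a median of -0.24. The mean level was 5.30 ± 0.05 (SD, n = 3) in plesseni against 5.01 ± 0.20 in malleti. Per array it was 5.25 to 5.36 against 4.79 to 5.16, so the groups did not overlap. A higher mean does not show that the 17 were raised as a set, since their median difference was negative. The mean includes HE670679:2030-4690, the member with the largest difference there, 4.83, at 9.83 ± 0.43 in plesseni and 5.00 ± 1.42 in malleti. Among all features 69 differed between races in the proximal forewing (0.538%), 47 higher (0.366%) and 22 lower (0.171%) in plesseni, and of the 17 that feature was the 1 among the higher ones. In the day 1 eye 10 of the 17 were higher in plesseni, with a median of 0.12, and 1 of the 17 passed among 197 calls (1.54%), of which 135 were higher in plesseni (1.05%). Levels in the eye were 5.73 ± 0.09 in plesseni and 5.66 ± 0.43 in malleti (SD, n = 3 each).

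In later distal forewings the median difference of the 17 was closer to 0. On day 3, 14 of the 17 were higher in plesseni with a median of 0.43, on day 5 it was 9 with a median of 0.01 and on day 7 it was 7 with a median of -0.14. Of the 17, 0 passed on these days, on which 3 features (0.0234%), 1 feature (0.00779%) and 0 features were called among all, with 1963, 418 and 162 at an unadjusted p under 0.05. The mean level of the 17 on day 1 was 8.15 ± 0.59 in plesseni and 4.46 ± 0.16 in malleti (SD, n = 3 each). Outside the day 1 distal forewing and hindwing, the highest level was 6.85, in the plesseni distal forewing of day 3, replicate 56. The races were also apart in the proximal forewing of day 3, at 6.32 ± 0.35 in plesseni and 5.22 ± 0.15 in malleti. Per array the levels there were 6.07 to 6.72 against 5.05 to 5.34. Plesseni replicates 10, 80 and 84 exceeded all malleti arrays there at 8, 11 and 8 of the 17 features. The shares of all features were 20.1%, 26.8% and 19%. The high level in the plesseni distal forewing of day 1 follows from the choice of the 17 on those arrays. The hindwing arrays entered that choice only through normalization and the shared estimate of spread. In whole sections of tissue, more cells of a type and more RNA per cell cannot be told apart.

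**Figure D2:**
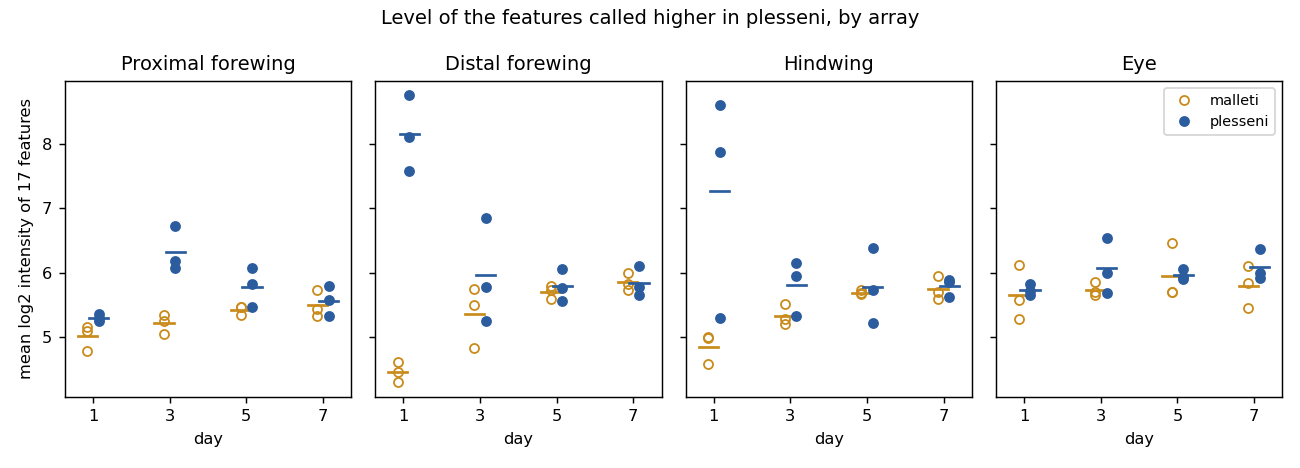
Mean log2 intensity of the 17 features called higher in plesseni (vertical axis) by day in each tissue, with 1 point per array and lines at group means. The 3 plesseni arrays of the day 1 distal forewing lie at 7.58 to 8.75 and those of the day 1 hindwing at 5.31, 7.88 and 8.61, and no array of another group is above 6.85. The malleti arrays of the day 1 distal forewing lie at 4.30 to 4.61.

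HE672055:174650-177457 also varied with age. In malleti distal forewings it averaged 4.41 ± 0.13 on day 1, 6.27 ± 1.23 on day 3, 8.33 ± 0.84 on day 5 and 10.83 ± 0.75 on day 7 (SD, n = 3 each). In plesseni it was 10.86 ± 0.74, 10.31 ± 3.02, 7.39 ± 0.75 and 10.17 ± 0.27 on the same days. The plesseni level of day 1 was thus close in value to the malleti level of day 7. The races were also far apart in the proximal forewing of day 3, at 12.40 ± 0.10 in plesseni and 6.05 ± 1.06 in malleti. On day 5 the proximal values were 7.02 ± 2.07 and 6.75 ± 1.40. In the day 3 hindwing this feature averaged 9.70 ± 4.18 in plesseni and 5.64 ± 0.12 in malleti. Over the 32 group means, the features whose pattern was most like it were HE670848:190076-192718 (Pearson r = 0.721) and HE670412:238664-258924 (r = 0.709), neither of which was called for race. For HE671379:17771-18663 they were HE667847:1-1285 (r = 0.829) and HE671646:53802-59713 (r = 0.814).

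Both directions had 1 feature that also differed in the proximal forewing. HE670679:2030-4690 measured 4.47, 4.62 and 4.07 in the malleti distal forewings and 9.19, 5.81 and 9.58 in plesseni replicates 4, 26 and 54, a difference of 3.80 ± 0.90 (SE; adjusted p = 0.0488). Plesseni replicate 26 was close to malleti here, although it had the highest values of most other features on the list. The difference was 4.83 in the proximal forewing (adjusted p = 0.00102) and 3.64 in the eye (adjusted p = 0.0176). In the hindwing the plesseni values were 8.28, 9.55 and 5.13 in replicates 6, 28 and 50, so replicate 50, highest for the whole list, was low. This feature passed in 9 of 21 settings in the distal forewing.

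HE671379:17771-18663 was lower in plesseni in the proximal forewing too, by -5.11 ± 1.04 (SE; adjusted p = 0.00407). Its malleti proximal values were 12.00, 7.94 and 13.18 in replicates 1, 75 and 77, against 5.37, 4.85 and 7.58 in plesseni replicates 2, 76 and 78. In the malleti hindwing it was 12.04 in replicate 5, one of the doubted arrays, and 5.81 and 5.40 in the other 2. The hindwing difference of -2.55 did not pass (adjusted p = 0.841).

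**Figure D3:**
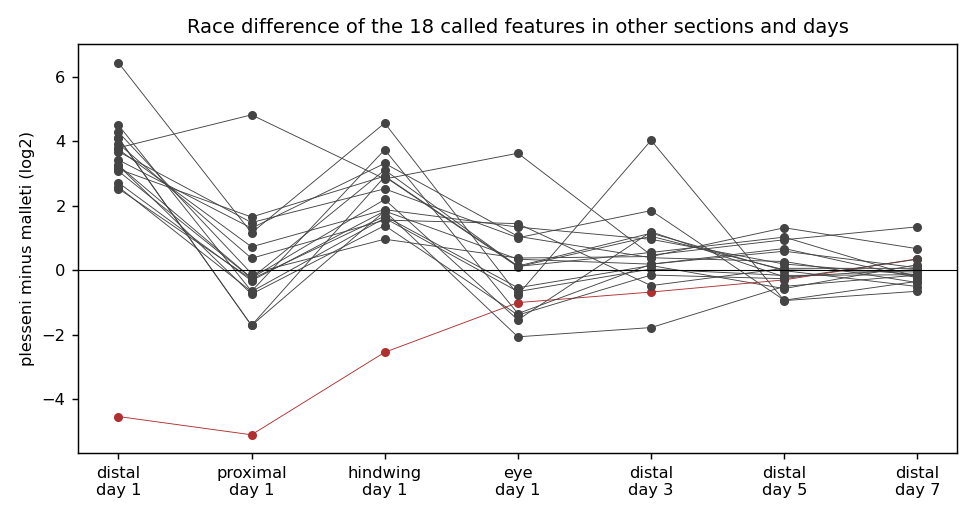
Log2 race difference, plesseni minus malleti (vertical axis), of the 18 called features in the day 1 distal forewing and in 6 other tissue and day groups; lines join the values of a feature, red for the one lower in plesseni. At 17 features the hindwing differences are all above 0, with a median of 2.20, while those of the proximal forewing, the eye and the later days lie on both sides of 0.

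Whether the race difference itself differed between tissues was tested in the same fit. Against the proximal forewing, 13 features passed (0.101%), 7 with a more positive difference in the distal section (0.0546%) and 6 with a more negative one (0.0468%). The 7 held 4 of the 17, a count that the choice of the 17 on the same distal arrays favours. HE667929:40-4255 had the largest positive change, 5.89 ± 1.14 (SE; adjusted p = 0.0047). Its level was 8.05 ± 0.15 in malleti and 10.57 ± 0.70 in plesseni distally, but 11.01 ± 1.69 and 7.63 ± 0.37 proximally (SD, n = 3 each), so the races were in opposite order. HE672065:158448-162363, one of the 17, changed by 5.83 ± 1.25 (adjusted p = 0.0225), with 4.93 ± 1.06 in malleti and 9.05 ± 0.93 in plesseni distally against 6.01 ± 0.22 and 4.30 ± 0.12 proximally. The negative changes of HE670617:54328-55967, at -5.08 (adjusted p = 0.00109), and HE671494:215846-234270, at -5.02 (adjusted p = 3.32e-04), came from features near their malleti level in the plesseni distal forewing and higher in the plesseni proximal one, at 9.10 ± 2.77 and 8.96 ± 2.49 (SD, n = 3). Plesseni proximal replicates 2, 76 and 78 were uneven, with 9.63, 6.10 and 11.56 for the first feature and 8.94, 6.48 and 11.46 for the second. The count was 6 to 8 without any one of malleti replicates 3, 25 and 53 and plesseni replicates 4 and 26.

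Against the eye, 32 features passed (0.249%), 17 more positive (0.132%) and 15 more negative (0.117%) in the distal forewing. Of the features called higher in plesseni, 5 were among the positive ones, a count that their choice on the same distal arrays favours. HE672055:174650-177457 changed by 7.21 ± 1.77 (SE; adjusted p = 0.0483). HE671060:407888-412712 changed by 6.83 ± 1.36 (adjusted p = 0.00493), being lower in the plesseni than in the malleti eye, at 6.75 ± 0.49 against 11.86 ± 0.61 (SD, n = 3 each). HE671450:21421-34454, at -5.68 ± 0.67 (adjusted p = 4.01e-08), was high in the plesseni eye and stood at 3.38 ± 0.25 in plesseni and 3.61 ± 0.14 in malleti distal forewings. HE671155:59399-60675, measured by 7 probes, changed by -7.32 ± 1.68 (adjusted p = 0.0256), with a plesseni eye level of 10.58 ± 6.33. The count fell to 13, 18, 19 and 21 without plesseni replicate 26 and malleti replicates 25, 53 and 3.

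Against the hindwing limma called 0 features, with 150 at an unadjusted p under 0.05, and without plesseni replicate 26 it called 1. Against the distal forewing of days 3 and 5 it called 0, with 976 and 414 at an unadjusted p under 0.05. Against day 7 it called 1 (0.00779%), HE669508:36155-63895, whose race difference was larger on day 1 by 3.90 ± 0.77 (SE; adjusted p = 0.0433). This feature had been called higher in plesseni on the same distal arrays, a choice that favours a call here. Without any one of malleti replicates 3, 25 and 53 or plesseni replicates 4 and 26 the count against day 7 was 0. The absence of calls does not show that the race differences were equal.

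The features called for race in other tissues were also read in the distal forewing. Of the 47 higher in the plesseni proximal forewing 38 were also higher distally, where 46.3% of all features were higher, and of the 22 lower ones 15 were also lower, where 6890 of all 12832 features were lower. Of these 69, 2 were called distally, against 0.14% of all features. Among the 47, 14 were at least 2-fold higher distally, against 4.2% of all features, and among the 22 lower ones 7 were at least 2-fold lower, against 2.73%. Of the eye's 197, 69 of 135 higher and 33 of 62 lower features had the same sign distally, shares near those of all features. By at least 2-fold, 24 of the 135 were higher distally, against 4.2% of all features, and 8 of the 62 lower, against 2.73%. The median distal difference was only 0.02 for the 135 and -0.06 for the 62. Changes of at least 2-fold against the called direction were not counted, so these shares do not show a shared race difference. Of the 197, 1 was called distally. Both features called in the hindwing had the same sign and 1 was called.

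The 17 features were not of 1 developmental kind in arrays outside the comparison. From day 1 to day 3 in the proximal forewing and hindwing, averaged over races, 5 rose and 5 fell, with a median of -0.06. Of all features 2897 passed there (22.6%), 1430 up (11.1%) and 1467 down (11.4%). This average includes the plesseni day 1 hindwings, in which all 17 averaged higher than in malleti. In the proximal forewing alone 5 rose and 2 fell, with a median of 0.48, where 797 of all features rose and 841 fell. In the hindwing alone 2 rose and 4 fell, with a median of -0.68, where 786 rose and 746 fell. Between distal and proximal forewing on days 3 to 7, 0 of the 17 were called, among 24 of all features (0.187%). Between eye and wing on those days 4 were higher and 5 lower in the eye, where 6018 features passed (46.9%), 2241 higher (17.5%) and 3777 lower (29.4%).

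At the colour locus walks, whose features were measured by 3 probes each, no race difference passed the test. In the AC walk 8 of 16 features were higher and 8 lower in plesseni, with a median of -0.01. The BD walk had 7 higher and 15 lower of 22 with a median of -0.18, and the YB walk 3 higher and 10 lower of 13 with a median of -0.33, where 46.3% of all features were higher. Called features numbered 0 in each walk, and 1 (6.25%), 1 (4.55%) and 2 (15.4%) had an unadjusted p under 0.05, against 3.42% of all features. By at least 2-fold in either direction 2 AC (12.5%), 1 BD (4.55%) and 4 YB features (30.8%) differed, against 6.93% of all features.

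The features with the smallest p in each walk were lower in plesseni. AC_WALK:450400-483854 measured 9.30, 8.59 and 9.45 in malleti and 7.42, 7.29 and 7.68 in plesseni, a difference of -1.65 ± 0.53 (SE; adjusted p = 0.354). YB_WALK:787289-791187 measured 10.14, 10.32 and 9.89 in malleti and 8.23, 8.36 and 8.44 in plesseni, a difference of -1.78 ± 0.60 (adjusted p = 0.419). In both the groups did not overlap, which 13.9% of all features showed in this direction. BD_WALK:566679-567658 differed by -1.58 ± 0.75 (unadjusted p = 0.0378), also without overlap. With the spread estimated from the 6 arrays alone these 3 had adjusted p values of 0.0255, 0.00478 and 0.0316. They had been picked for the smallest p of their walk on the same arrays, and that fit called many more features across the array as well.

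The other 6 walk features named by the same rule did not pass either. In AC they were AC_WALK:283963-285642 at 1.18 ± 0.64 and AC_WALK:403080-405490 at -0.91 ± 0.55, in BD they were BD_WALK:594388-595305 at -0.69 ± 0.51 and BD_WALK:330555-340961 at -0.67 ± 0.63, and in YB they were YB_WALK:742267-747915 at 1.30 ± 0.58 and YB_WALK:761217-786948 at -1.12 ± 0.69 (log2, SE). All 16 AC features have a predicted gene with the same start and end on scaffold HE668478, and 12 of the 16 pairs had race differences of the same sign. Measured by 9 probes, the counterparts of AC_WALK:450400-483854, AC_WALK:283963-285642 and AC_WALK:403080-405490 differed by -1.07 ± 0.48, 0.55 ± 0.54 and -0.93 ± 0.67 (log2, SE), and none passed.

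**Figure D4:**
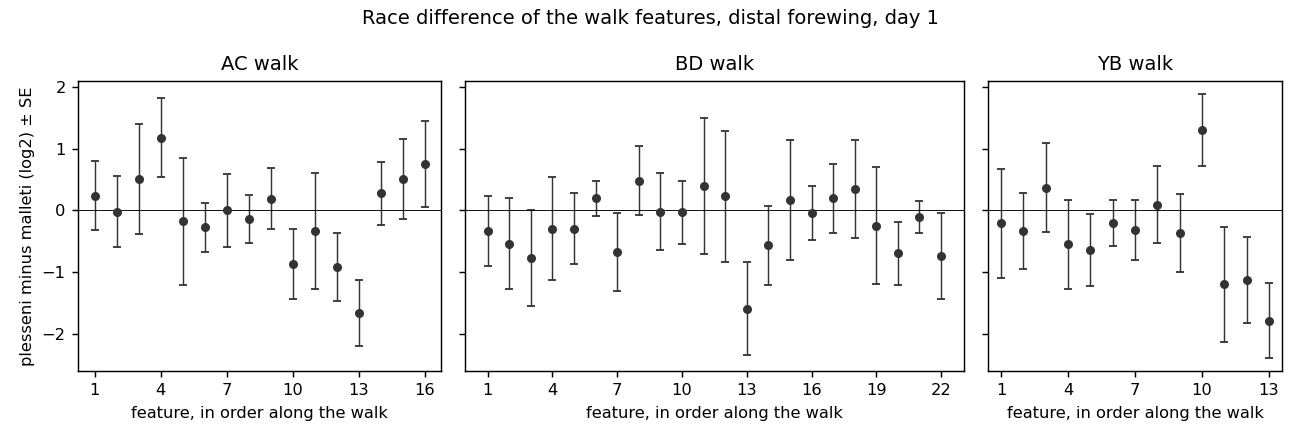
Log2 race difference, plesseni minus malleti, with its standard error (vertical axis) of every transcribed feature of the AC, BD and YB walks in order along the walk (horizontal axis), day 1 distal forewing. Most lie within 1 on either side of 0; the lowest in each walk are at -1.65, -1.58 and -1.78, and none passed the test over all features.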

How the data were processed

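Cy3-labelled cDNA of pupal wing sections and eyes was hybridised to NimbleGen arrays of 60-base probes, 12 arrays on each of 8 slides, per the labels' protocols and the design text. The authors deposited 1 linear intensity per feature and array, summarised by RMA per the submitters' processing notes. For the RMA version, the background correction and the genome build, the sources used here give nothing. The deposited value table differed from the array files in 0 values. Array medians ran from 22.98 to 376, so intensities were put on a log2 scale and quantile-normalized over the 96 arrays with limma 3.58.1 in R 4.3.3.

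A model of 32 group means (64 residual degrees of freedom) was fitted with lmFit and eBayes, and p-values were adjusted by Benjamini-Hochberg over 12832 features, with calls at 0.05. The fitting code was tested on simulated data. Standard errors are those of the fit, and all differences are plesseni minus malleti. The spread is that between samples labelled as independent replicates, and whether sections came from the same individuals is not given. Slide and detector gain were read from the array files' names. Arrays limit precision by their number, 3 a group.

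Members, lists and tests were chosen with earlier results of these data known. Named features are, for each comparison, the 2 higher and the 2 lower called features with the largest change, those shared with the proximal forewing or hindwing, and 3 of each walk with the smallest p. Patterns were likened by Pearson correlation over group means. The gene table supplied (assembly ASM5695672v1) matched 0 feature identifiers, so planned gene lists and cell type markers were not used and no sequence is shown. Alternatives changed the scaling, the arrays in the fit, slide, gain, filters, moderation and array weights.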

Additional observations from a re-analysis of the deposited data

Results flagged for a closer look

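The race difference in the day 1 distal forewing differed from that of other groups by a test of the difference itself in 3 comparisons. Against the proximal forewing 13 features passed, against the eye 32 and against the distal forewing of day 7 it was 1.

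Against the proximal forewing the largest differences on the log2 scale were 5.895 at HE667929:40-4255, 5.831 at HE672065:158448-162363, -5.079 at HE670617:54328-55967 and -5.018 at HE671494:215846-234270. Against the eye they were 7.212 at HE672055:174650-177457, 6.831 at HE671060:407888-412712, -7.319 at HE671155:59399-60675 and -5.676 at HE671450:21421-34454. Against day 7 it was 3.896 at HE669508:36155-63895.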

How the results depend on the processing

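The count of 18 called features, 17 higher and 1 lower, was 29 (26 and 3) with arrays centred on their medians, 32 (30 and 2) in a fit of the 72 wing arrays, 77 (58 and 19) without the 12 doubted arrays, 283 (211 and 72) in a fit of the 6 arrays and 297 (211 and 86) when these were also normalized alone. It was 11 (11 and 0) with slide as a fixed block, 9 (9 and 0) on arrays of gain 440 and 10 (9 and 1) without the dimmest 25% of features. Trend and robust moderation called 2 lower features. Array weights gave 2493 (1151 and 1342), but limma warned that the weights had not converged. Leaving out each of the 6 arrays in turn gave 6 to 19 calls, 6 to 14 higher and 0 to 6 lower. None of the 18 changed direction in any setting run. The median over all features was 0.27 on the deposited log2 scale and -0.11 after centring, against -0.04.

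Of the tests of the difference, the count against the proximal forewing, 13, was 2 on the deposited scale, 35 without the 12 arrays, 7 with slide as a block and 6 to 13 with an array left out. Against the eye, 32, these were 7, 107, 19 and 13 to 30. Against the hindwing, 0, it was 7 without the 12 arrays and 0 to 1 with an array left out. Against day 3, 0, the deposited scale gave 4 and centring 1. Against day 5, 0, the deposited scale gave 1 and leaving out the 12 arrays 7. Against day 7, 1, the values were 4 on the deposited scale, 0 after centring, 7 without the 12 arrays, 0 with slide as a block and 0 to 1 with an array left out. The causes were not tested. The medians of the lists moved by less than the spread between replicates in the settings run for them. No paired analysis was made, because replicate numbers run from 1 to 96, so no number is shared between groups, and the labels name no pairs. Malleti replicates 3, 25 and 53 are followed in number by plesseni replicates 4, 26 and 54, each on another slide. Whether such neighbours were pairs is not given.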

Other observations

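Outside the 18, 40 features were called both in the fit of the 6 arrays and without the 12 doubted arrays, but not when the spread was shared over all arrays. The 3 with the largest difference were chosen by a rule made after values had been seen. HE668179:16809-19269 measured 4.12, 3.18 and 4.04 in malleti replicates 3, 25 and 53 and 8.76, 10.28 and 8.48 in plesseni replicates 4, 26 and 54. Its difference of 5.39 ± 1.52 (SE) had an adjusted p of 0.172, against 0.00195 in the fit of the 6 arrays and 0.03 without the 12.

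HE671692:69501-70133 measured 8.05, 7.90 and 8.00 in malleti and 12.59, 12.89 and 12.68 in plesseni. Its difference of 4.74 ± 1.25 (SE) had an adjusted p of 0.0942, against 8.71e-05 in the fit of the 6 arrays and 0.0344 without the 12. The race difference was of like size in the day 1 proximal forewing, hindwing and eye, at 4.67, 5.02 and 4.49, and passed in the eye (adjusted p = 0.0428).

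HE671499:190119-190890 measured 6.13, 6.40 and 6.14 in malleti and 10.79, 11.57 and 10.50 in plesseni. Its difference of 4.73 ± 1.16 (SE) had an adjusted p of 0.0693, against 3.17e-04 in the fit of the 6 arrays and 0.00251 without the 12. In the hindwing the difference was 3.41 and in the proximal forewing and the eye -1.29 and -1.35, and none of these passed.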
